A study of Myzus persicae with 16 samples.

Results

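This account is about 150 transcripts of the green peach aphid Myzus persicae, chosen for a lower level after exposure to the aphid alarm pheromone in aphids that were not habituated to it, and for little shift in habituated aphids. They are called the lowered transcripts here, after the rule that chose them and not after a test. A transcript means 1 sequence name on the array, with its probes averaged. The 150 were taken from 7223 names that could have been chosen, out of 10489 names on the array. They were chosen by the log2 ratios of both EBF comparisons of the study, so those values are a description with no test.

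(E)-beta-farnesene, abbreviated EBF, is the main alarm pheromone of many aphids. An attacked aphid releases it from its cornicles, the pair of tubes on its back, and neighbours that perceive it may stop feeding, walk away or drop from the plant. Habituation is a weakening of such a response after repeated or lasting exposure to a stimulus. The 35S:EBFS plants used for rearing carry an EBF synthase gene, and 35S is a promoter that is active in most plant tissues, so these plants give off EBF continuously.

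Whole aphids of a red, tobacco-adapted strain, shared by all groups, were reared for at least 6 months with 16 h of light and 8 h of darkness a day. Pools of 50 were then kept for 30 min with 1 µg of EBF in hexane, or with hexane alone. The 4 conditions were EBF-exposed and reared on wild-type Arabidopsis thaliana Col-0, EBF-exposed and reared on 35S:EBFS plants, hexane-treated and reared on 35S:EBFS plants, and hexane-treated and reared on Col-0. Aphids from Col-0 carry the label of not habituated, and the aphids from 35S:EBFS plants are called habituated here. The 16 two-colour arrays formed a loop of 4 comparisons with 4 arrays each. The Col-0 EBF comparison set exposed over hexane-treated Col-0-reared aphids. The exposed comparison set exposed Col-0-reared over exposed 35S:EBFS-reared aphids. The 35S:EBFS EBF comparison set exposed over hexane-treated 35S:EBFS-reared aphids, and the solvent comparison set hexane-treated 35S:EBFS-reared over hexane-treated Col-0-reared aphids. Because RNA came from whole bodies, fewer cells of a type and less RNA per cell cannot be told apart. The labels describe no age, sex or stage of the aphids, and habituation was not measured on these arrays.

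The files pair the names with no genes: 145 of the 150 are contig names and 5 are other sequence identifiers, and 0 names of the array matched the RefSeq gene table of the species. No gene, pathway or sequence is therefore given, and a few contigs are named only to show the range of patterns. The Col-0 EBF comparison and the exposed comparison were on slide 1, the others on slide 2, so slide and comparison cannot be told apart when the responses of both rearings are set side by side. The share of probes well above background was 68.4% to 81.4% per channel on slide 1 and 76.5% to 89.0% on slide 2. Slide 1 had no saturated spot, and on slide 2 between 3.0% and 4.2% of spots in the red channel were saturated.

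Several channels appeared to carry the same RNA, which the labels do not state. Levels of single channels were compared within a slide and dye, as log2 signal minus the channel's median, over all 7223 names. Of 112 pairs of channels, 8 differed by an SD over names of only 0.115 to 0.247, while the other pairs differed by 0.353 to 0.910. All 8 were pairs of the same condition. The limit of 0.3 between these ranges was set after the values were seen. The 4 exposed Col-0-reared samples of the Col-0 EBF comparison recurred, number by number, on the exposed comparison. On the 35S:EBFS EBF comparison, arrays 1 and 3 shared the exposed sample and arrays 2 and 4 the hexane sample. On the solvent comparison, arrays 1 and 3 shared the 35S:EBFS-reared sample and arrays 2 and 4 the Col-0-reared sample. By these values the 32 channels held at most 24 distinct samples: 4 exposed Col-0-reared, 4 and 3 exposed 35S:EBFS-reared on slides 1 and 2, 6 hexane-treated 35S:EBFS-reared, and 4 and 3 hexane-treated Col-0-reared. Channels of different slides or dyes were not compared in this way. The exposed comparison therefore reuses the exposed Col-0-reared samples that chose the transcripts and is not independent of the choice. Whether its 35S:EBFS-reared samples recur on the 35S:EBFS EBF arrays was not examined, since those arrays are on slide 2.

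The choice was made on 10576 of 14628 probes, those well above background in both channels on all 8 arrays of both EBF comparisons. On each array the log2 ratio was centred on the array's median, then averaged over 4 arrays and over the probes of a name. In the Col-0 EBF comparison 769 names had a mean of -0.3 or lower, and 535 of them lay within 0.3 of 0 in the 35S:EBFS EBF comparison. The 150 lowest were kept. The last name kept, contig6608, had -0.498 in the Col-0 EBF comparison and the first left out, contig1432, had -0.497, so the lower end of the list is not set off from what follows. Names just inside the limits on the habituated response were contig544 (-0.297) and contig9107 (0.299), and just outside them lay contig9674 (-0.303) and contig8208 (0.303). Without any limit on the habituated response, 277 names were as low in the Col-0 EBF comparison, of which 26 were at -0.3 or below and 101 at 0.3 or above in the 35S:EBFS EBF comparison.

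In the Col-0 EBF comparison the lowered transcripts had a median log2 ratio of -0.68, 1.61-fold lower in exposed than in hexane-treated aphids, with quartiles of -0.91 and -0.56 and a range of -2.93 to -0.50. Most sat near the limit: 121 of 150 were above -1, 29 at or below it, and 11 at or below -2. The medians on arrays 1 to 4 were -0.98, -0.66, -0.63 and -0.63, so array 1 was the lowest and the others were alike. The ratio was below 0 on all 4 arrays for 104 transcripts, on 3 for 42 and on 2 for 4. Over all names 11.8% were below 0 on all 4 arrays, and since this contrast chose the transcripts nothing is read from that count. Array 1 held the lowest of the 4 values for 70 transcripts, array 2 for 41, array 3 for 22 and array 4 for 17. The median SD over the 4 arrays was 0.54 for the lowered transcripts and 0.28 over all names.

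**Figure D1:**
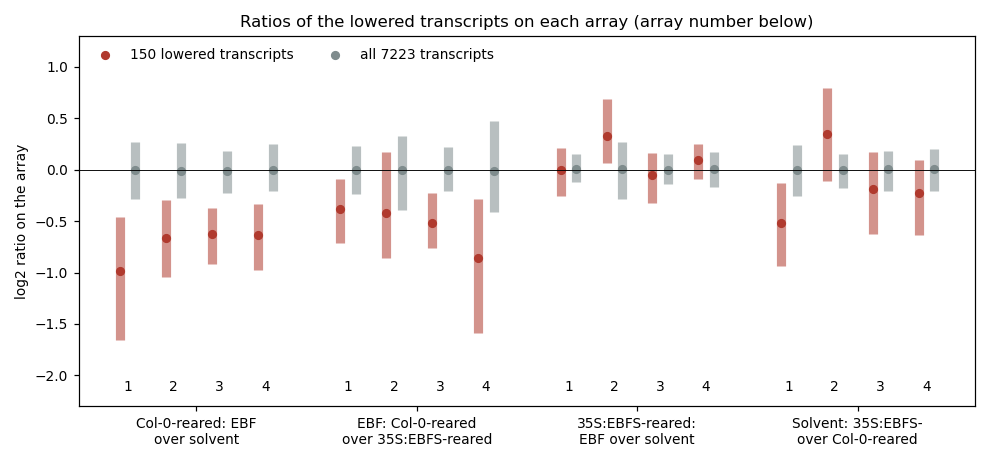
Log2 ratios on each of the 16 arrays, in red for the 150 lowered transcripts and in grey for all 7223 names, with points at the median and bars between the quartiles. The red medians lie between -0.98 and -0.63 in the Col-0 EBF comparison that chose the transcripts, between -0.86 and -0.39 in the exposed comparison, and on both sides of 0 in the other 2 comparisons.

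The response of habituated aphids was bounded by the rule, and its mean over arrays lay between -0.30 and 0.30 with a median of 0.10. Single arrays spread more widely. The medians of the lowered transcripts on arrays 1 to 4 of the 35S:EBFS EBF comparison were -0.00047, 0.33, -0.051 and 0.092, so array 2 stood highest and the others lay near 0. At least 1 array went beyond 0.5 in either direction for 87 transcripts, or 58.0%, compared with 34.7% of all names. The median SD over arrays was 0.33 for the lowered transcripts and 0.20 over all names. Arrays 1 and 3 share an exposed sample and arrays 2 and 4 share a hexane sample, so these are not 4 separate replicates. The dyes alternate between the same pairs of arrays. The ratio was below 0 on all 4 arrays for 0 transcripts, against 13.6% of all names, from which nothing is read since this contrast bounded the choice. Signs differed between arrays for 132 of 150 transcripts and for 5148 of all 7223 names, and nothing is read from that count either. A mean near 0 can be the balance of arrays on both sides of it. It does not show that the habituated aphids did not respond.

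How far the low ratio carried over to a sample that had no part in the choice was read by repeating the choice without 1 array of the Col-0 EBF comparison at a time. Lists of 150 chosen without array 1, 2, 3 or 4 shared 97, 109, 128 and 111 names with the full list. On the 3 arrays used, their medians were -0.68, -0.77, -0.70 and -0.76. On the array left out, the medians were -0.24, -0.24, -0.49 and -0.33, closer to 0 each time but below it on all 4. Ratios below 0 on the left-out array were found for 100, 97, 127 and 109 of 150 names, against 50.4%, 50.8%, 51.6% and 50.5% of all names. The same lists were read on the same-numbered array of the exposed comparison, which carries the same exposed Col-0-reared sample as the left-out array. Their medians there were -0.079, 0.071, -0.55 and -0.40, so with samples 1 and 2 the lists lay near 0 and with samples 3 and 4 below it. On those exposed arrays 81, 73, 124 and 109 of 150 names were below 0, against 50.4%, 50.1%, 50.2% and 50.6% of all names. The 4 lists overlap, and no test was made of these values.

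**Figure D2:**
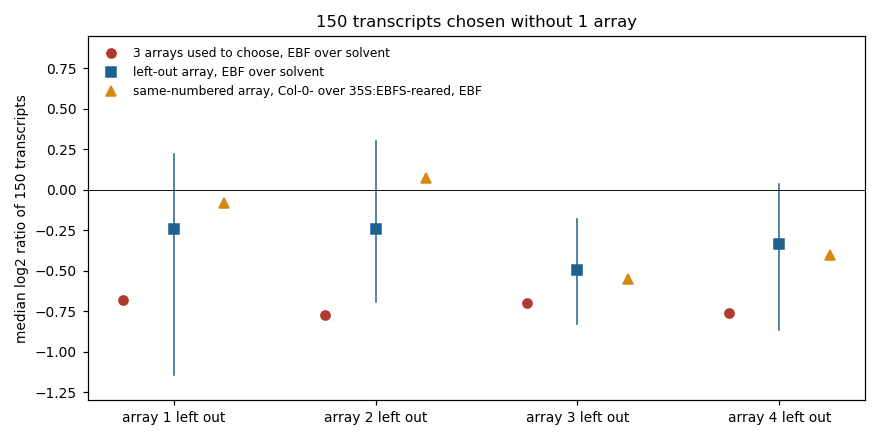
Median log2 ratio of 150 transcripts chosen without 1 array of the Col-0 EBF comparison: on the 3 arrays used (circles), on the array left out (squares, with lines between the quartiles) and on the same-numbered array of the exposed comparison (triangles). Squares lie between -0.49 and -0.24, above every circle, and the triangles for arrays 1 and 2 lie close to 0.

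The exposed comparison asks whether the lowered transcripts were also lower in exposed Col-0-reared aphids than in exposed 35S:EBFS-reared aphids. The median ratio was -0.58, 1.49-fold lower in Col-0-reared aphids, with quartiles of -0.84 and -0.30 and a range of -2.42 to 0.88. The mean was below 0 for 136 of 150 transcripts, against 50.6% of all names. It was below 0 on all 4 arrays for 67, against 8.72% of all names. The medians on arrays 1 to 4 were -0.39, -0.42, -0.52 and -0.86, giving a mean of -0.55 ± 0.22 (SD, n = 4 arrays), so every array had a negative median. These shares are well above those of all names, but the exposed Col-0-reared samples are the ones whose low values chose the transcripts, and the part of this reuse in the shares was not tested beyond the left-out arrays above.

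No lowered transcript passed limma's test in the exposed comparison with Benjamini-Hochberg adjustment over 7223 names. The lowest adjusted p was 0.149, and over all names 0% were called lower. At an unadjusted p under 0.05, 60 were lower, 0 higher and 90 neither, where 7.17% of all names were lower and 8.03% higher. The median standard error of a lowered transcript was 0.29. This fit also takes its spread from the solvent arrays, which share RNA in pairs. With those pairs averaged, 52 were lower at an unadjusted p under 0.05, against 5.04% of all names. The lowest limma adjusted p of a lowered transcript was then 0.360. With limma's array weights, an alternative in which array 3 of the exposed comparison had a weight of 7.34 and array 2 one of 0.148 and whose estimation did not converge, 76 of 150 were lower and 1 higher after adjustment, against 6.49% of all names called lower. With all 16 arrays in the fit, which brings in those that chose the transcripts, 40 were lower after adjustment, against 5.11% of all names.

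**Figure D3:**
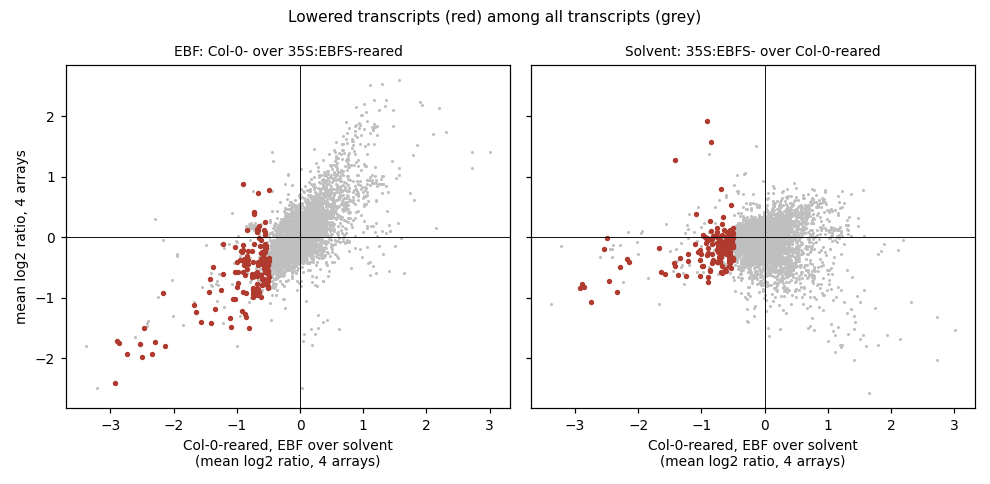
Mean log2 ratio over 4 arrays in the exposed comparison (left) and the solvent comparison (right) against that in the Col-0 EBF comparison, for the 150 lowered transcripts in red and all other names in grey. In the left panel 136 red points lie below 0, and in the right panel 119 do, mostly close to 0.

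In the solvent comparison, without any EBF treatment, the lowered transcripts had a median ratio of -0.18, lower in 35S:EBFS-reared than in Col-0-reared aphids. The mean was below 0 for 119 of 150, against 51% of all names, and it was below 0 on all 4 arrays for 13, against 7.81%. The medians on arrays 1 to 4 were -0.51, 0.35, -0.19 and -0.22. Array 2 was above 0 and the others below. Since arrays 1 and 3 share 1 sample and arrays 2 and 4 another, these are not 4 separate replicates, and no SD is given for this comparison. Limma called 0 lowered transcripts after adjustment, with a lowest adjusted p of 0.721, against 0.0277% of all names called lower. At an unadjusted p under 0.05, 7 were lower and 3 higher, against 4.06% and 2.08% of all names. This fit counts the 4 arrays as separate, and with arrays that share RNA averaged 1 was lower, against 1.44% of all names. The 35S:EBFS-reared samples of this comparison were not seen to recur on the 35S:EBFS EBF arrays, as far as channels of 1 slide and dye can show. Its Col-0-reared samples could not be compared in this way with those of the Col-0 EBF comparison, which is on slide 1.

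The sum of the exposed and solvent comparisons equals, around the loop, the EBF response of Col-0-reared minus that of 35S:EBFS-reared aphids, without the arrays that chose the transcripts. Its median was -0.68, and it was below 0 for 140 of 150 transcripts, against 52.7% of all names, with a range of -3.26 to 2.80. It includes the exposed Col-0-reared samples again. Limma called 0 after adjustment, with a lowest adjusted p of 0.144 and 0% of all names called lower. At an unadjusted p under 0.05, 48 were lower and 0 higher, where 6.16% of all names were lower and 5.99% higher. With arrays that share RNA averaged, 29 were lower, against 2.96% of all names. A difference of both responses was thus not shown for any single lowered transcript. On single arrays, 59 transcripts were below 0 on all 8 that carry exposed Col-0-reared aphids, against 4.97% of all names. All 8 carry the exposed samples that chose the transcripts, so nothing is read from that count.

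The levels by condition show where the low values sit. They are medians over the 150, as log2 signal minus the channel's median, and are compared on slide 1 only. Exposed Col-0-reared samples 1 to 4 had -2.24, -1.26, -1.56 and -1.51 on the Col-0 EBF arrays and -2.08, -1.13, -1.51 and -1.50 on the exposed arrays. Exposed 35S:EBFS-reared samples had -1.62, -0.86, -1.02 and -0.72. Hexane-treated Col-0-reared samples had -0.84, -0.88, -0.94 and -0.91. The hexane-treated samples lay close together and above all exposed Col-0-reared samples, by the choice. The exposed 35S:EBFS-reared samples lay near them except for sample 1, which at -1.62 lay within the range of the exposed Col-0-reared samples. On slide 2, where no exposed Col-0-reared sample was placed, exposed 35S:EBFS-reared channels lay between -0.96 and -0.72, hexane-treated 35S:EBFS-reared channels between -1.58 and -0.84, and hexane-treated Col-0-reared channels between -1.31 and -0.92.

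The lowest ratios belonged to a small bright subset, described after its values were seen. On array 1 of the Col-0 EBF comparison, 16 lowered transcripts were below -3, between -6.21 and -3.06, and they include the 11 lowest of the whole list. Their medians on arrays 1 to 4 were -5.05, -1.06, -0.87 and -2.11. In the exposed comparison their medians were -3.20, -0.63, -0.78 and -1.87. The 35S:EBFS EBF arrays gave -0.47, 0.44, -0.11 and 0.17, near 0. In the solvent comparison, however, they were -2.36, 1.79, -2.07 and 0.53, and arrays 1 and 3, both low, share 1 hexane-treated 35S:EBFS-reared sample. The red channel held the 35S:EBFS-reared aphids on arrays 1 and 3 and the Col-0-reared aphids on arrays 2 and 4. Dye thus alternates with the shared sample, and its part in these medians was not tested. In the red channel of 35S:EBFS EBF arrays 1 and 3, hexane-treated 35S:EBFS-reared aphids had median levels of 2.53 and 2.25. As levels, the median of the 16 was -2.45, 3.05, 1.97 and 0.60 in exposed Col-0-reared samples 1 to 4. It was 0.26 and 0.18 in that hexane-treated 35S:EBFS-reared sample, on its 2 arrays, and 1.84 to 3.34 in the other channels of its condition. In the hexane-treated Col-0-reared sample shared by solvent arrays 2 and 4 their median was 1.48 and 1.38. The other hexane-treated Col-0-reared channels had 2.48 to 3.98. The 16 were thus low in 1 hexane-treated 35S:EBFS-reared sample as well as in exposed Col-0-reared samples 1 and 4. In 1 hexane-treated Col-0-reared sample they were lower than in the others of its condition. Their levels differed widely between samples of the same condition.

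Of the 16, 15 had a mean level above 0, the channel median, whereas the lowered transcripts as a whole were dim. Their median level was -1.17, with quartiles of -2.59 and 1.15, against -0.27 for all names. The 53 above 0 had a median Col-0 EBF ratio of -0.91 and a median SD of 0.85, and the 97 dimmer ones -0.64 and 0.47. In the exposed comparison the medians were -0.45 for the 53 and -0.58 for the 97. On the 8 arrays that did not choose the transcripts, 109 of 150 (72.7%) were well above background in both channels throughout, against 85.5% of all names, and over those 109 the exposed comparison had a median of -0.46, with 37 lower at an unadjusted p under 0.05, against 6.6% of the 6178 names that met the same condition. Saturated spots on the 35S:EBFS EBF arrays touched 15 transcripts, 10% against 6.27% of all names, and 5 were saturated on all 4 arrays. Without these 15 the median of the exposed comparison was -0.58. That comparison is on slide 1, without saturated spots, so its median does not bear on saturation in the 35S:EBFS EBF ratios.

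Contig3160 had the lowest Col-0 EBF ratio of the 150. On arrays 1 to 4 of the Col-0 EBF comparison its processed signals were 479, 15512, 9561 and 935 in exposed aphids, against 28069, 40331, 18550 and 11126 in hexane-treated aphids. The exposed signal was the lower one on every array, with samples 1 and 4 far below the other pair. The log2 ratios were -5.87, -1.36, -0.96 and -3.53, a mean of -2.93 ± 2.26 (SD, n = 4). On the exposed arrays its signals were 439, 9455, 7764 and 732 in Col-0-reared aphids, against 9287, 17429, 13535 and 9561 in 35S:EBFS-reared aphids. The ratios were -4.40, -0.83, -0.81 and -3.63, with a mean of -2.42 ± 1.87 (SD, n = 4) and a limma adjusted p of 0.264. In the 35S:EBFS EBF comparison its ratios were -0.0014, 1.04, -0.46 and 0.49. In the solvent comparison they were -3.15, 1.81, -2.63 and 0.60, so the hexane-treated 35S:EBFS-reared sample of arrays 1 and 3 was low too.

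Contig2127 was the second lowest, with Col-0 EBF ratios of -5.82, -1.50, -2.05 and -2.21 and a mean of -2.90 ± 1.97 (SD, n = 4). In the exposed comparison its ratios were -4.33, -0.99, -1.47 and -0.047, so array 4 was close to 0 there. Exposed 35S:EBFS-reared sample 4 was itself low on that array, at a signal of 1803 beside 1659 in exposed Col-0-reared aphids. Contig1668 had the second lowest mean in the exposed comparison, -1.98 ± 1.63 (SD, n = 4), from -4.24, -0.56, -1.04 and -2.06. Its ratios in the solvent comparison were -2.74, 2.29, -1.19 and 1.59, on both sides of 0.

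At the other end of variability stood contig9444 and contig2845, the names with the smallest SD in the Col-0 EBF comparison. Contig2845 had processed signals of 114, 60.1, 82.1 and 85.4 in exposed aphids, against 161, 90.8, 127 and 132 in hexane-treated aphids. Its ratios were -0.52, -0.59, -0.63 and -0.58, a mean of -0.58 ± 0.048 (SD, n = 4). The ratio was thus even across arrays, but the signals were weak. In the exposed comparison its ratios were -0.35, -1.31, -0.52 and -0.66, a mean of -0.71 with a standard error of 0.18 and a limma adjusted p of 0.167, and in the solvent comparison the mean was -0.060. Contig9444 had Col-0 EBF ratios of -0.53, -0.56, -0.53 and -0.46 and a mean of -0.52 ± 0.043 (SD, n = 4). Its exposed ratios were -0.61, -1.73, -0.56 and -0.13, a mean of -0.76 with a limma adjusted p of 0.239. On exposed array 2, which gave the lowest ratio of each, the exposed Col-0-reared signal was only 23.2 for contig2845 and 27.4 for contig9444. Both names were below 0 on all 8 of these arrays. Those arrays carry the exposed samples that chose the transcripts, so nothing is read from that.

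**Figure D4:**
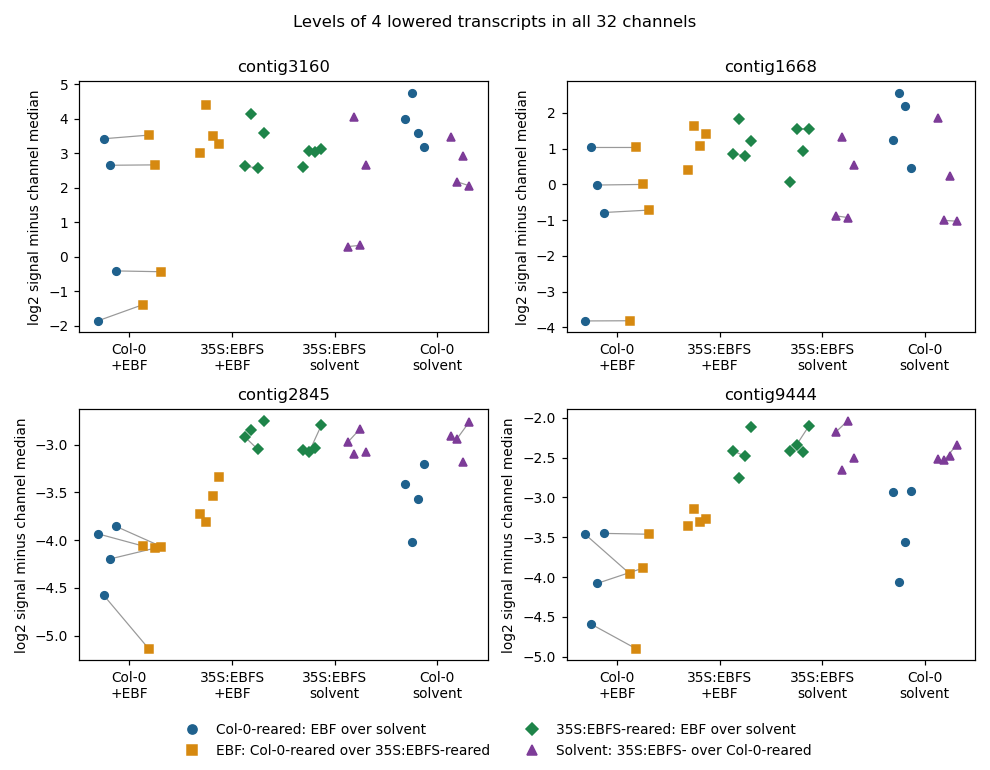
Levels of contig3160, contig1668, contig2845 and contig9444 in all 32 channels, as log2 signal minus the channel's median, by condition and with a symbol for each comparison; grey lines join channels that by their values share RNA. In the upper panels the exposed Col-0-reared samples spread widely, and 1 hexane-treated 35S:EBFS-reared sample gives a pair of low triangles. For contig1668 a hexane-treated Col-0-reared sample gives another low pair, at -1.01 and -1.03. The lower panels show weak signals, with slide 2 (diamonds and triangles) above slide 1.

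A few lowered transcripts went against the pattern in the comparisons that did not choose them. Contig4229 had Col-0 EBF ratios of -2.87, -0.86, -0.38 and 0.49, but exposed ratios of -3.81, 1.65, 0.75 and 4.91. In the solvent comparison it had 0.13, 2.79, 1.68 and 3.08, the highest mean of the list at 1.92. Its signal ranged from 251 to 7971 among the 4 exposed 35S:EBFS-reared samples of slide 1, so its mean exposed ratio rests on single samples. On the solvent arrays its levels were 1.96 to 2.23 in 35S:EBFS-reared channels. In Col-0-reared channels they were 1.84, -0.87, 0.26 and -0.83 on arrays 1 to 4, where arrays 2 and 4 share 1 sample. Contig4634 had the second highest mean in the exposed comparison, 0.79 ± 1.12 (SD, n = 4), from -0.21, -0.01, 1.16 and 2.20. Contig4161 was above 0 on all 4 solvent arrays, at 1.63, 2.54, 0.46 and 1.66, with a mean of 1.57 and a limma adjusted p of 0.721. The lowest solvent means were those of contig3831, -1.07, and contig3417, -0.91. Contig3417 had solvent ratios of -3.91, 2.65, -3.59 and 1.21, and its signals of 608 and 626 on arrays 1 and 3 came from the shared 35S:EBFS-reared sample.

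For 52 of the lowered transcripts 2 probes of the name passed. In the Col-0 EBF comparison, whose mean over these probes chose them, the median difference between the probes of a name was 0.039 and the largest 0.50. In the exposed comparison the median difference was 0.054, against 0.037 over all 3353 names with 2 such probes. Both probes had the same sign there for 51 of 52, against 89.5% of those names. Probes of 1 name report on the same samples, so they bear on the measurement of a transcript and not on the spread between aphid pools.

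Some names may stand for the same or similar sequences. Over the 16 arrays contig2127 and contig2126 had a correlation of 0.999, with ratios never more than 0.23 apart, and contig9834 and contig4448 one of 0.998. Of 11175 pairs of lowered transcripts, 5 had a correlation over 0.99, and the median over all pairs was 0.39. These correlations share arrays and samples, and the number of separate genes behind 150 names is not known here.

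In the authors' deposited table, which gives 1 log2 fold change per comparison, the lowered transcripts had a median of -0.63 in the column for Col-0 with EBF over Col-0 without, and 0.10 in that for 35S:EBFS with EBF over 35S:EBFS without. The column named for exposed Col-0 over exposed 35S:EBFS aphids in the authors' deposited table had a median of 0.45, with 135 of 150 above 0. Across all names it correlated at -0.98 with the ratios used here, whose direction follows the dyes in the labels, so column name and dye labels disagree on its sign. The direction of the exposed comparison rests on those dye labels. It also rests on the channel values above, in which the low channels recur on both slide 1 comparisons under the label of exposed Col-0-reared aphids.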

How the data were processed

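Per the file headers, the spot intensity values were extracted with Agilent Feature Extraction 10.5.1.1. The processed signal intensity, deposited by the authors on a linear scale after the scanner software's background and dye correction, was used for each dye. Log2 fold changes in the authors' deposited table enter 1 paragraph. The submitters' processing notes name limma without a version. Ratios follow the dyes in the labels. Control spots were left out and saturated spots kept. Ratios of the 8 arrays that did not choose the transcripts were fitted in limma 3.58.1 under R 4.3.3 with a dye effect per name (5 residual degrees of freedom), with Benjamini-Hochberg adjustment over 7223 names and a threshold of 0.05. The fit was tested on simulated data. With 4 arrays per comparison, and arrays that share RNA, the number of arrays limits precision and p-values cover only array-to-array spread, which may be technical in part. The transcripts, the lists and the tests were chosen with earlier results of these data known. The contigs named are, at most 2 each, those with the lowest Col-0 EBF ratio, the smallest SD there, the lowest and highest values of the other readings and the names beside each limit. Contig2126, contig9834 and contig4448 were named after their values were seen. Normalization, dye effect, array weights, left-out arrays, a replicate block, dim and saturated spots were varied.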

Additional observations from a re-analysis of the deposited data

Results flagged for a closer look

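Among 56 sets of 4 arrays examined for 1 value far from the other 3, 4 stood out. Chance alone marks about 1 in 20 sets, but that rate does not apply here, since the contigs were picked for extreme values and 3 of the 4 sets lie in the comparisons that chose the transcripts. The values are given as a description. The median of the lowered transcripts on array 1 of the Col-0 EBF comparison was -0.98, while the other arrays lay between -0.66 and -0.63. Contig2127 had -5.82 on that array and -2.21 to -1.50 on the others. Contig3831 had -4.64 on array 1 of the exposed comparison and -1.32 to -0.65 on the others. Both arrays carry exposed Col-0-reared sample 1. Contig4634 had 2.28 on array 3 of the 35S:EBFS EBF comparison and -0.86 to -0.45 on the others.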

How the results depend on the processing

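The list itself depends on single arrays: 97 to 128 of 150 names were kept when 1 Col-0 EBF array was left out, the lowest without array 1, and 101 to 129 when 1 array of the 35S:EBFS EBF comparison was. Other ways to choose kept 101 (median of arrays) to 149 names, with normexp and loess at 127. The median ratio kept its sign under every alternative run, at -0.68 to -0.45 in the exposed comparison, -0.32 to -0.098 in the solvent comparison and -0.81 to -0.39 for the difference of responses. Counts at an unadjusted limma p moved more. The share of all names called lower is given in parentheses. In the exposed comparison 60 lower (7.17%) became 107 with array weights (17.1%), 95 with all 16 arrays (13.8%), 37 of the 109 above background on all arrays (6.6%), and 40 to 83 with 1 array left out (3.49% to 13.2%). With arrays that share RNA averaged, the count was 52 (5.04%). After adjustment 0 became 76 with array weights (6.49%), 40 with all 16 arrays (5.11%), and 0 to 2 with 1 array left out. The 2 were found without exposed array 1 (0.0415%), where 34 of all names were called higher. In the solvent comparison 7 lower (4.06%) became 21 with array weights (12.5%), 14 with all 16 arrays (4.26%), 4 of 109 above background (4.26%), 1 with arrays that share RNA averaged, an alternative chosen after seeing the data (1.44%), and 1 to 25 with 1 array left out (2.09% to 5.9%), 25 without solvent array 2, 2 without array 1 and 1 without array 4. For the difference, 48 (6.16%) became 85 with array weights (12.2%), 25 with the solvent ratios turned (3.57%), 29 with shared RNA averaged (2.96%), and 28 to 77 with 1 array left out (3.79% to 8.97%), 77 without exposed array 2 and 28 without solvent array 4. The cause was not tested. The array weights did not converge. With the replicate number as a random block (consensus correlation 0.083) the counts were 63 (7.3%), 7 (4.22%) and 43 (5.66%). After adjustment 0 lowered transcripts were called, as in the main fit. Of 817 values of named contigs, 801 stayed on the same side of the threshold of adjusted p and 16 passed it. No named contig passed in the main fit, and changes of sign short of the threshold were not counted.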
